A study of Mus musculus with 6 samples.

Results

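The subject is the set of 10 marker genes of liver sinusoidal endothelial cells, Dnase1l3, Kdr, Stab1, Stab2, Clec4g, Lyve1, Pecam1, Cdh5, Flt1 and Gpr182, in mouse liver with and without the receptor gene Gpr146. The markers were listed by symbol, with earlier results of these data known. Each was read from its single probe set with 1 gene symbol, so all 10 of 10 were measured, among 22180 genes in all. The samples were whole livers of 6 male mice on a C57BL/6J background, 3 wild type (WT) and 3 whole-body Gpr146 knockout (KO), littermates by the study's description. Every mouse was 24 weeks old, ate chow, went without food for 16 hours and was then refed for 6 hours. Each liver came from 1 mouse and was hybridised to 1 Affymetrix whole-transcript array. The knockout was present in all cells of the body, endothelium included. Which part of the gene was deleted is not stated in the labels.

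Liver sinusoids are capillaries without a continuous basement membrane, and their endothelial cells carry open pores that let plasma reach the hepatocytes. These cells clear waste macromolecules, lipoprotein remnants and immune complexes from blood through scavenger receptors and lectins on their surface. They also answer hepatocyte VEGF through VEGF receptors, and they send signals such as Wnt and BMP ligands back to hepatocytes. The markers therefore fall into uptake receptors (Stab1, Stab2, Lyve1 and the lectin Clec4g), VEGF receptors (Kdr and Flt1) and junction proteins (Pecam1 and Cdh5). The others are a secreted nuclease (Dnase1l3) and a receptor that binds chemokines (Gpr182).

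Promoter sequences are shown as a description of a few markers, and their part in the values was not tested. RefSeq's promoter table (GRCm38.p6) held windows for 5 of the 10 markers, Stab1, Stab2, Clec4g, Kdr and Flt1. Windows were cut to the bases before the outermost annotated start of the gene, which left 0 bases for Kdr and Flt1. The cut windows of Stab1, Stab2 and Clec4g are shown. Stab1 and Stab2 were highest in KO mouse 1 and Clec4g was lowest there. Capitals mark the letters AGGAAG on either strand, a core bound by ETS-family factors.
Stab1, chr14:31168652-31168891, minus strand: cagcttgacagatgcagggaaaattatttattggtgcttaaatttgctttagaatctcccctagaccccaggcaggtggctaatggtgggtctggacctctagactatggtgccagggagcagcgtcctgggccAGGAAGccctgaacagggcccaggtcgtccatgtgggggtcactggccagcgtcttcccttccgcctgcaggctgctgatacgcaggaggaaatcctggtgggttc
Stab2, chr10:87008039-87008192, minus strand: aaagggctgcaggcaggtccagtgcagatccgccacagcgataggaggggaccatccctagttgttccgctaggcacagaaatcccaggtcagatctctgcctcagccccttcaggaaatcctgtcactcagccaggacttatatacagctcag
Clec4g, chr8:3720696-3720901, minus strand: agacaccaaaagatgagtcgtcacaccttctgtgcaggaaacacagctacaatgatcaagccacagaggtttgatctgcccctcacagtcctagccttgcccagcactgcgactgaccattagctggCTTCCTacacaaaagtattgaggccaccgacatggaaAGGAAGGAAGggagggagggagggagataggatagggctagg

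Searched over the full windows of 300 bases and on both strands, AGGAAG was in 4 of the 5 marker windows (Stab1, Stab2, Clec4g and Flt1) and in 35.4% of all 32851 windows of that length. The Stab2 match lay in the part of its window that is not shown. The whole Flt1 window lay past the outermost annotated start, within the gene. TATAAA, the TATA box core, was in the Clec4g and Flt1 windows and in 13.6% of all windows. No full match in either gene lay before its outermost annotated start, so the Clec4g match is not in the part shown. The GATA core AGATAA and the SOX core ACAAAG were in 0 of the 5 marker windows, against 11.2% and 18.7% of all windows. Stab1, Stab2 and Flt1, which had AGGAAG, were highest in KO mouse 1. Clec4g, which had it, and Kdr, which did not, were lowest there. The matches are of letters and not binding sites, and their part in the values was not tested.

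The targeted gene was read first as a check of the labels. Values here and below are log2 signals in the order of mouse 1, mouse 2 and mouse 3 of a genotype. Gpr146 was at 5.96, 5.56 and 5.65 in WT and at 4.61, 4.28 and 3.87 in KO, so each KO liver was below each WT liver. The difference was -1.47 ± 0.19 (SE; limma adjusted p = 0.0702), which missed the threshold of 0.05. It was past it without WT mouse 3 (0.0268), after median centring (0.024) and with limma's trend and robust options (0.0272), and it reached 0.268 among the other alternatives. Whether the probes lie in the deleted stretch is unknown, so the signal left in KO does not measure remaining receptor. Array medians ran from 2.67 to 2.73. Markers of hepatocytes were tested in 8 of 8 cases, of Kupffer cells (the resident macrophages) in 12 of 12 and of stellate cells in 11 of 12, where tested means a mean signal in the upper 50% of all genes, at or above 2.99. Only 1 of 8 T and NK cell genes and 1 of 5 measured B and plasma cell genes reached that level. All 10 sinusoidal markers reached it, as did 2 of 5 measured bile duct genes and 3 of 8 neutrophil and platelet genes. In these other cell type lists limma called 0 genes, and at an unadjusted p under 0.05 there were 1 stellate and 1 bile duct gene, both higher. Over all genes tested the share at that p was 9.13%.

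KO and WT livers were compared to ask whether the loss of the receptor came with a change in endothelial transcripts. None of the 10 markers passed: limma gave 0 with an adjusted p under 0.05 and 1, Dnase1l3, with an unadjusted p under 0.05. Over all 11090 genes tested, 4 passed, which is 0.0361%, and 9.13% had an unadjusted p under 0.05. The 4 genes became 51 without WT mouse 3, 2 without WT mouse 1 and 1 without any other mouse, while the markers past the threshold stayed at 0 each time. The marker differences, KO minus WT on the log2 scale, ran from -0.31 for Dnase1l3 to 0.26 for Gpr182. Of the 10, 7 were above 0 and 3 below it, and 57.7% of all genes tested were above 0. With quantile normalization Pecam1, Cdh5 and Flt1 moved below 0. The median was 0.03 over the markers and 0.03 over all genes tested. In whole liver, fewer endothelial cells and less RNA per endothelial cell cannot be told apart.

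**Figure D1:**
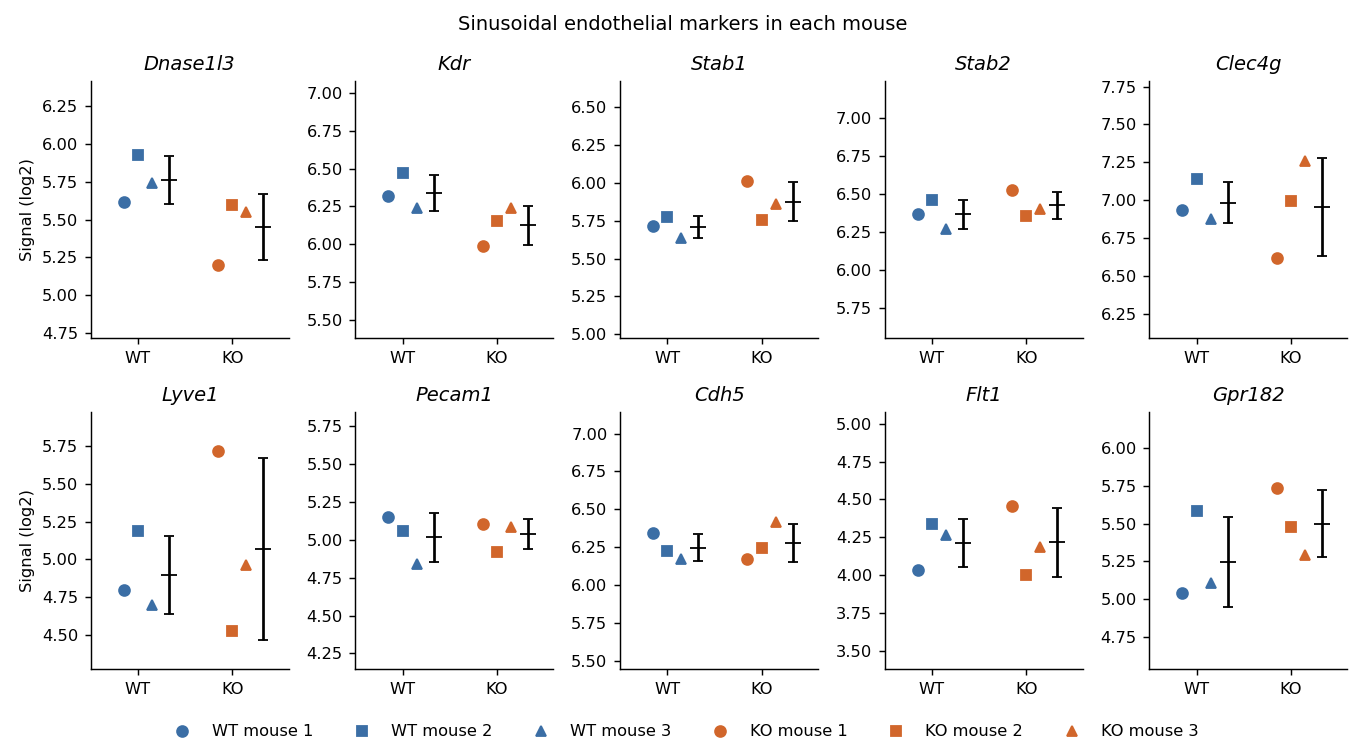
Signal (log2, vertical axis) of the 10 markers in each of the 3 WT and 3 KO mice, with 1 symbol per mouse number and group mean ± SD (n = 3) beside the points; each panel spans the same number of log2 units. Dnase1l3 is the one panel in which the groups do not overlap, and KO mouse 1 (circle) lies at the top or bottom of most panels.

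Stab1 and Stab2, the large stabilin receptors that take up hyaluronan, modified lipoproteins and other waste, had differences above 0 that did not pass the test. Stab1 was at 5.72, 5.77 and 5.64 in WT and at 6.01, 5.76 and 5.86 in KO. KO mouse 2 lay just under WT mouse 2, so the groups overlapped. The Stab1 difference was 0.17 ± 0.10 (SE; 95% interval -0.06 to 0.40; limma adjusted p = 0.647). Stab2 was at 6.37, 6.46 and 6.27 in WT and at 6.52, 6.35 and 6.40 in KO. It had the smallest spread of the 10, with a pooled SD within groups of 0.093. Its difference was 0.06 ± 0.10 (SE; 95% interval -0.16 to 0.28; limma adjusted p = 0.896), so a change of more than 1.22-fold upward lay outside the interval. Without KO mouse 1 the difference was 0.10 for Stab1 and 0.01 for Stab2, and without WT mouse 3 it was 0.13 and 0.01.

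Lyve1, a hyaluronan receptor shared with lymphatic endothelium and some macrophages, varied more than any other marker. Its signal was 4.80, 5.19 and 4.70 in WT and 5.72, 4.53 and 4.97 in KO. The highest and the lowest liver of all 6 were both KO, a range of 1.19. The pooled SD of 0.463 exceeded that of 98.4% of the genes tested. The difference was 0.17 ± 0.27 (SE; 95% interval -0.44 to 0.79; limma adjusted p = 0.890), and -0.15 ± 0.19 without KO mouse 1. Lyve1 therefore has the loosest bound of the set, up to 1.73-fold higher in KO.

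Clec4g, the sinusoidal lectin LSECtin, gave 6.94, 7.14 and 6.88 in WT and 6.62, 6.99 and 7.26 in KO. The KO livers spanned the WT livers on both sides. The difference was -0.03 ± 0.16 (SE; 95% interval -0.39 to 0.34; limma adjusted p = 0.976), and it was 0.14 ± 0.13 without KO mouse 1, which was the lowest of the 6.

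Kdr, the main signalling receptor for VEGF-A, had a difference below 0 that did not pass. It was at 6.32, 6.47 and 6.24 in WT and at 5.99, 6.15 and 6.24 in KO. The highest KO liver and the lowest WT liver were level at 6.24, and the other two KO livers were below all WT livers. The difference was -0.22 ± 0.11 (SE; 95% interval -0.46 to 0.03; limma adjusted p = 0.593; exact permutation p = 0.2). It kept its sign with each mouse left out, from -0.27 to -0.15. Flt1, the VEGF receptor that binds the ligand tightly and signals weakly, was at 4.03, 4.34 and 4.27 in WT and 4.46, 4.0 and 4.19 in KO. Here the KO livers covered the WT range, and the difference was 0.0023 ± 0.14 (SE; 95% interval -0.31 to 0.32; limma adjusted p = 0.996).

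Pecam1 and Cdh5, junction proteins of all endothelium, differed least from mouse to mouse beside the stabilins and Kdr. Pecam1, also carried by platelets and leukocytes, was at 5.15, 5.06 and 4.84 in WT and 5.10, 4.92 and 5.09 in KO. Its difference was 0.02 ± 0.11 (SE; 95% interval -0.23 to 0.27). Cdh5, VE-cadherin, was at 6.34, 6.23 and 6.17 in WT and 6.17, 6.24 and 6.42 in KO. Its difference was 0.03 ± 0.10 (SE; 95% interval -0.21 to 0.27), and limma's adjusted p was 0.975 for Pecam1 and 0.952 for Cdh5. The groups overlapped for both genes.

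Dnase1l3, a secreted nuclease that digests DNA on particles in blood, showed the largest difference of the set. It was at 5.61, 5.93 and 5.74 in WT and at 5.20, 5.59 and 5.55 in KO. Every KO liver was below every WT liver, the narrowest gap being 5.59 in KO mouse 2 against 5.61 in WT mouse 1. Such separation held for 1 of the 10 markers and for 14.8% of all genes tested. The difference was -0.31 ± 0.13 (SE; 95% interval -0.62 to -0.01), a signal 1.24-fold higher in WT. Limma's adjusted p was 0.536 (unadjusted p = 0.0465), and the exact permutation p of 0.1 is the smallest that 3 against 3 mice allow. Without KO mouse 1 the difference was -0.19 ± 0.12 (adjusted p = 0.694).

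Gpr182, a receptor of sinusoidal and lymphatic endothelium that binds chemokines without classical G protein signalling, stood at the other end. WT livers were at 5.04, 5.58 and 5.11, and KO livers at 5.73, 5.47 and 5.29. WT mouse 2 lay among the KO livers, and the other two WT livers lay below all of them. The difference was 0.26 ± 0.17 (SE; 95% interval -0.13 to 0.64; limma adjusted p = 0.668). Leaving out WT mouse 2 gave 0.43, and leaving out KO mouse 1 gave 0.14.

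**Figure D2:**
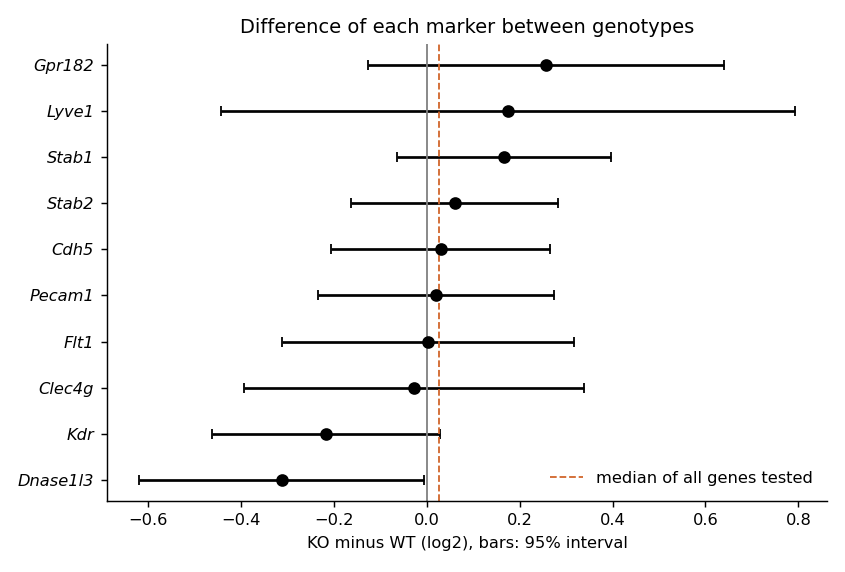
KO minus WT difference (log2, horizontal axis) of each of the 10 markers, with bars for the 95% interval from limma (n = 3 mice per genotype) and a dashed line at the median of all genes tested, 0.03. The intervals of 9 markers cross 0, and that of Dnase1l3 ends at -0.01.

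In the median, the precision of these comparisons was near that of a typical gene tested. The median standard error was 0.12 over the markers and 0.11 over all genes tested. The markers differed, however. The pooled SD of Dnase1l3, Flt1, Clec4g, Gpr182 and Lyve1 exceeded that of 74.5% to 98.4% of the genes tested. For the other markers this was 21.6% to 46.6%. The 95% intervals stayed within 0.5 of 0 in 7 of the 10 markers, the exceptions being Dnase1l3, Lyve1 and Gpr182. Across the set they reached down to -0.62 and up to 0.79, which is 1.54-fold lower and 1.73-fold higher in KO. The number of mice limits how much smaller a difference could have been seen, and an adjusted p above the threshold does not show that the genotypes were alike.

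In KO mouse 1 the markers lay on both sides of the other livers. It was the highest of the 6 livers for Stab1, Stab2, Lyve1, Flt1 and Gpr182 and the lowest for Dnase1l3, Kdr, Clec4g and Cdh5, so it was an end value in 9 of 10 markers. For Cdh5 it was level with WT mouse 3, at 6.17 each. Over all genes tested KO mouse 1 was an end value in 31.8%, and the other 5 mice were end values in 2 or 3 markers each. This pattern was noticed in the data and not tested. Relative to the WT mean, KO mouse 1 was 0.82 higher for Lyve1, 0.49 higher for Gpr182 and 0.30 higher for Stab1, while it was -0.56 for Dnase1l3, -0.37 for Clec4g and -0.36 for Kdr. The mean over the 10 markers, each centred on the midpoint of the genotypes, was 0.07 in that liver, since the opposite deviations offset each other. In WT mouse 2, 8 of 10 markers were above their midpoint, and in KO mouse 2 and WT mouse 3, 8 and 7 of 10 were below it. The mean in the other mice was -0.05, 0.13 and -0.10 in the WT mice, and -0.08 and 0.04 in KO mice 2 and 3.

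**Figure D3:**
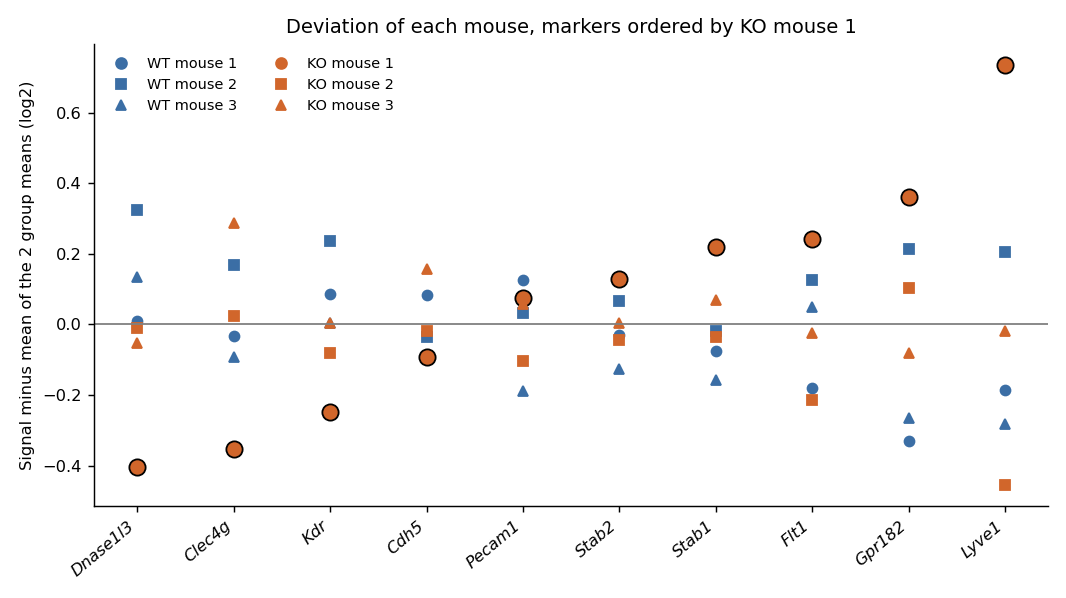
Deviation of each mouse (log2, vertical axis) from the mean of both group means for each of the 10 markers, which are ordered along the horizontal axis by KO mouse 1 (large outlined circles). KO mouse 1 runs from -0.40 for Dnase1l3 to 0.74 for Lyve1, with an SD across markers of 0.35, against 0.11 to 0.15 in the other 5 mice.

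The other endothelial, angiocrine and scavenger lists also hold some hepatocyte, macrophage and broadly expressed genes. Over the 90 genes of these lists tested, KO mouse 1 was an end value in 33.3%, WT mouse 2 in 41.1%, WT mouse 3 in 38.9% and the other 3 mice in 27.8% to 31.1%. Within the periportal list KO mouse 1 was highest in 4 of 7, and WT mouse 3 was lowest in 5 of 7. In the list of other sinusoidal genes WT mouse 2 was highest in 11 of 19, and KO mouse 1 was an end value in 8 of 19. In the VEGF and angiopoietin list, which also holds Kdr and Flt1, KO mouse 1 was an end value in 8 of 14 and WT mouse 2 in 7 of 14. The Notch ligand Dll4, a gene of periportal and arterial endothelium, was at 4.05 in KO mouse 1 and at 2.95 to 3.54 in the other 5 livers. Bmp2, made by sinusoidal endothelium, was at 3.55 there and at 4.11 to 4.78 in the others. These examples were picked after their values were seen. Beside these values, the centred means of other cell type lists in KO mouse 1 were -0.17 for 12 Kupffer cell genes, 0.16 for 12 stellate cell genes and -0.02 for 8 hepatocyte genes. The Kupffer mean ran from -0.28 to 0.40 in WT and from -0.17 to 0.39 in KO. The stellate mean ran from -0.25 to 0.16 in WT and from -0.13 to 0.16 in KO. The part of these cells in the marker values was not tested.

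A longer list of 20 other sinusoidal endothelial genes gave the same count of calls. Of 19 tested, limma called 0, with 1 higher and 2 lower at an unadjusted p under 0.05. Over all genes tested, 9.13% had an unadjusted limma p under 0.05. The median over the 20 was -0.07, with 6 above 0 and 14 below it, against 7 above and 3 below among the 10 markers. Of all genes tested, 57.7% were above 0, with a median of 0.03. The first genes on the list were Oit3 at -0.07 ± 0.14 and the inhibitory Fc receptor Fcgr2b at -0.12 ± 0.13 (SE). Next were the lectin-like receptor Clec1b at 0.24 ± 0.13 and the mannose receptor Mrc1 at 0.08 ± 0.13 (SE). Clec1b and Mrc1 were highest in KO mouse 3, as were 8 of 12 Kupffer cell genes, and Oit3 and Fcgr2b in WT mouse 2. The part of Kupffer cells in these values was not tested. Of 11 scavenger receptor and lectin genes tested, 0 passed and 2 were higher at an unadjusted p under 0.05, beside the same 9.13%. The fatty acid transporter Cd36, at -0.53 ± 0.24 (adjusted p = 0.564), and the HDL receptor Scarb1, at 0.30 ± 0.12 (adjusted p = 0.508), are also expressed by other liver cells.

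Ligands and partners of the VEGF receptors did not pass either, with 0 of 14 tested genes called and 0 at an unadjusted p under 0.05. Vegfa, the ligand of Kdr and Flt1, was at 9.01, 8.79 and 8.63 in WT and 9.14, 9.12 and 8.95 in KO. The KO livers lay higher apart from KO mouse 3, which was under WT mouse 1. The Vegfa difference was 0.26 ± 0.12 (SE; 95% interval -0.01 to 0.53; limma adjusted p = 0.564). Vegfb, a ligand of Flt1, differed by -0.33 ± 0.15 (adjusted p = 0.560) and Vegfc, which acts mainly on lymphatic vessels, by -0.05 ± 0.10 (adjusted p = 0.916). Pgf, another Flt1 ligand, was below the signal filter.

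Among junction and adhesion genes, 0 of 11 tested passed and 0 had an unadjusted p under 0.05. Cldn5, the endothelial claudin, was at 0.18 ± 0.16, the adhesion molecule Esam at -0.03 ± 0.12 and Jam2 at -0.23 ± 0.12 (SE); Jam3 was below the filter. Among 13 transcription factors tested 0 passed and 1 was higher at an unadjusted p under 0.05, against 9.13% of all genes tested. Gata4, which specifies the sinusoidal type of endothelium, was at 0.06 ± 0.09. Gata2 was at -0.07 ± 0.13 and Maf at -0.09 ± 0.12, and Tfec was below the filter. Of 9 measured genes of capillaries and large vessels only 3 reached the filter, and 0 of these had an unadjusted p under 0.05. Vwf, Cd34 and Cav1 were under it and Emcn differed by -0.28 ± 0.15 (SE). Of 4 lymphatic endothelial genes tested 0 passed and 0 had an unadjusted p under 0.05, with a median of -0.04 over 6 genes.

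The list of endothelial signals to hepatocytes, together with their receptors and hepatocyte response genes, gave 0 calls over 15 genes tested, with 1 higher and 1 lower at an unadjusted p under 0.05. The higher one was Bmp6, a ligand made by sinusoidal endothelium that raises hepcidin in hepatocytes. It was at 4.11, 4.19 and 4.14 in WT and 4.27, 4.65 and 4.66 in KO, so the groups did not overlap. Its difference was 0.38 ± 0.12 (SE; 95% interval 0.10 to 0.65; limma adjusted p = 0.416; exact permutation p = 0.1). The lower one was Hgf, a growth factor for hepatocytes that stellate cells also make, at 5.45, 5.82 and 5.83 in WT and 5.31, 5.44 and 5.33 in KO. Its groups did not overlap either, and its difference was -0.34 ± 0.12 (SE; limma adjusted p = 0.442). Over all genes tested, groups did not overlap in 14.8%, and 9.13% had an unadjusted limma p under 0.05. Hamp, the hepcidin gene, differed by 0.18 ± 0.11 (adjusted p = 0.641), with overlapping groups. Of the other response genes on the list, Id1 was at 0.12 ± 0.10 and Axin2 at 0.14 ± 0.10. Smad6 was at -0.06 ± 0.15, Smad7 at -0.01 ± 0.10 and Lgr5 at -0.20 ± 0.12 (SE). Hgf, Hamp and these response genes were named after their values were seen. Bmp2 was at -0.06 ± 0.30, and at 0.33 without KO mouse 1. The Wnt ligand Wnt9b was at -0.27 ± 0.13 (adjusted p = 0.571), and Wnt2 was below the filter.

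Position along the lobule was read from short lists. Endothelial genes of the central vein side had a median difference of -0.13 over 9 genes, 7 of them below 0. Among those below 0, Wnt2, Cdh13 and Selp were under the signal filter. Genes of the portal side had a median of 0.13 over 7 genes, 6 of them above 0. Of all genes tested, 57.7% were above 0. Neither list held a called gene: 0 of 6 and 0 of 7 tested passed, and 1 and 1 had an unadjusted p under 0.05. The share at that p over all genes tested was 9.13%. The central genes Kit and Rspo3 were at -0.13 ± 0.14 and -0.21 ± 0.12 (SE). With 1 mouse left out at a time, Kit ran from -0.28 to -0.02 and Rspo3 from -0.33 to -0.10. The portal genes Dll4, Efnb2, Ltbp4 and Msr1 were at 0.11 ± 0.24, 0.13 ± 0.15, 0.08 ± 0.14 and 0.16 ± 0.16. Without WT mouse 3, the lowest in 5 of the 7 portal genes, Efnb2 and Msr1 were at 0.01 each, and without KO mouse 1 Efnb2 was at 0.0068. Dll4 was at -0.19 without KO mouse 1 and Ltbp4 at -0.07 without WT mouse 1. The difference between the lists was not tested.

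**Figure D4:**
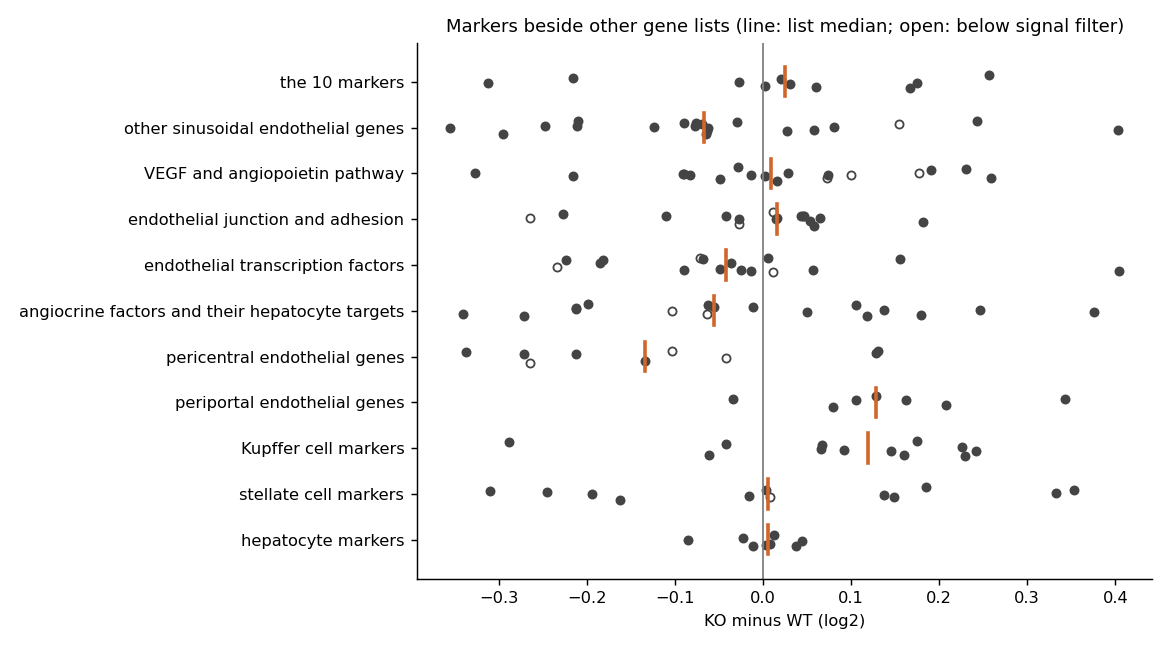
KO minus WT difference (log2, horizontal axis) of each measured gene, 1 point per gene, in the 10 markers and 10 other lists; filled points passed the signal filter and the vertical line is the list median. The medians lie between -0.13 for central vein endothelial genes and 0.13 for portal ones, and no point passed the threshold.

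Of the 11080 other genes tested, those whose signal over the 6 mice was most like the mean of the 10 markers were Traf3ip2, Pxmp4, E330033B04Rik, Cep170 and Alpl. Their Pearson correlations ran from 0.986 to 0.991. With 6 mice and this many genes, values of this size are a description only, and none of the 5 is on an endothelial list used here. Their differences between genotypes were at most 0.06, and limma's adjusted p was 0.933 or more for each. Traf3ip2 ran only from 2.98 to 3.13 over the 6 mice, near the signal filter at 2.99.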

How the data were processed

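Liver RNA of 6 mice was labelled for an Affymetrix whole-transcript array, per the labels' protocols. The authors deposited 1 table of log2 values for 41345 probe sets, with a method of summary and normalization not given in the sources used here. That they are log2 was judged from their range (highest 12.2). Genes were named from the platform annotation and updated through Entrez numbers to a GRCm38.p6 gene table. Of the probe sets, 23521 carried 1 symbol, 1814 several and 16010 none; where a gene had several (1082 genes), the probe set of highest mean was used.

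KO and WT were compared with limma 3.58.1 in R 4.3.3 (lmFit, eBayes, two-sided, no covariate) over 11090 genes, with Benjamini-Hochberg adjustment; the fit was tested on simulated data. Exact two-sided permutation tests used scipy 1.17.1. Replicates are separate mice, and labels give no batch. The markers and lists were chosen with earlier results of these data known. Named genes were all markers, Gpr146, 5 genes most like the marker mean and the first 4 measured genes of each endothelial and scavenger list. Hgf, Hamp and the other hepatocyte response genes were named after their values were seen. Lymphatic genes and other cell types are given by counts and list averages. Erythroid genes were not analysed here. Alternatives covered filter, probe set rule, normalization, variance model, array weights, replicate block and leaving out each mouse. No protein sequence was used here.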

Additional observations from a re-analysis of the deposited data

How the results depend on the processing

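In 14 alternatives 0 markers passed in limma, with the smallest adjusted p of any marker at 0.411; 0 to 2 had an unadjusted p under 0.05. The median difference over the markers ran from -0.014 (quantile normalization) to 0.087 (without KO mouse 2). Each shift was smaller than the SD between mice, within genotypes, of the median signal over the markers. Lyve1 and Flt1 were below the filter of the upper 25% of signal. Over all genes, limma's calls went from 4 to 0 in that upper 25% (567 at an unadjusted p under 0.05), to 1 with the replicate block and to between 1 and 51 with a mouse left out; the cause was not tested. The replicate numbers did not pair the mice: same-numbered deviations correlated at 0.055, -0.187 and 0.147, WT mouse 2 correlated best with KO mouse 1, and the block changed no marker's side of the threshold.

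Dnase1l3, Kdr, Stab1, Stab2 and Gpr182 kept their sign in every alternative run, with Stab2 down to 0.0106 and Stab1 to 0.0996 without KO mouse 1. Signs turned with quantile normalization for Pecam1 (-0.0195), Cdh5 (-0.0085), Flt1 (-0.0255) and Pxmp4 (-0.0038), and with array weights for Flt1 (-0.0399) and Traf3ip2 (-0.0088). With 1 mouse left out at a time, signs turned within these ranges: Clec4g -0.178 to 0.142, Lyve1 -0.149 to 0.446, Pecam1 -0.069 to 0.0875, Cdh5 -0.0408 to 0.0838 and Flt1 -0.118 to 0.110 among the markers. Others were Oit3 -0.1825 to 0.0646, Mrc1 -0.0579 to 0.194, Vegfc -0.0908 to 0.0094, Esam -0.112 to 0.0773, Gata2 -0.189 to 0.0206, Maf -0.159 to 0.0092, Bmp2 -0.287 to 0.3285, Dll4 -0.195 to 0.353 and Ltbp4 -0.0718 to 0.208. The 5 genes most like the marker mean did so too, Traf3ip2 from -0.0281 to 0.0454, Pxmp4 from -0.0488 to 0.107, E330033B04Rik from -0.0357 to 0.226, Cep170 from -0.051 to 0.193 and Alpl from -0.0868 to 0.208.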
